A study of Bos taurus with 27 samples.

Results

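GP2 (ENSBTAG00000006263) and ITLN2 (ENSBTAG00000022937) are 2 of the 24616 genes in the count table of the calf colon. They were selected from the measured values themselves, because each was close to absent in some calves and well expressed in the others, with a wide empty interval between. The width of that interval is therefore a description of how the genes were chosen, and it was not tested.

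GP2 encodes glycoprotein 2, a membrane-anchored protein with a zona pellucida domain. It is best known from the zymogen granules of the pancreatic acinar cell, and in the intestine from the apical surface of M cells, the epithelial cells that lie over lymphoid follicles, where it binds fimbriated bacteria. ITLN2 encodes an intelectin, one of a small family of secreted lectins that recognise carbohydrates on the surface of microbes and that are released by goblet and Paneth cells of the gut. Both genes are thus read as parts of the contact between the gut epithelium and bacteria, which begins at birth.

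The samples were colon segments taken distal to the ileo-cecal junction from 27 male Holstein calves killed at 51 h of age, with 1 library per calf. Pooled, pasteurized colostrum was given by tube as the first meal, either immediately after birth (TRT0, 9 calves), at 6 h (TRT6, 9 calves) or at 12 h (TRT12, 9 calves), and milk replacer followed in every group. Dams were primiparous heifers (H, 12 calves) or multiparous cows (C, 15 calves), so that each treatment held 4 H and 5 C calves. No group went without colostrum, and each calf was sampled at 1 age only, so the earlier and later course of either gene in a calf was not measured.

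The libraries held 1163791 to 4202593 gene counts. A total of 3 counts, taken as the floor of detection, corresponded to 0.714 to 2.58 CPM, where CPM is the count of a gene per 1000000 gene counts of the library. No 2 libraries held identical values. Markers of absorptive colonocytes and goblet cells were present throughout, with means over the 27 calves of 95.9 ± 25.8 CPM for SLC26A3, the chloride and bicarbonate exchanger of the colon surface, 373 ± 65.4 CPM for VIL1, a brush border protein, and 525 ± 224 CPM for AGR2, a goblet cell protein (SD, n = 27). In whole tissue, fewer cells of a type and less RNA per cell cannot be told apart. The libraries were sequenced on 3 lanes, namely lanes 6 and 7 of a first run with 11 calves each and lane 1 of a second run with 5 calves.

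GP2 ranged from 0 to 325 CPM over the 27 calves, with a mean of 94.3 ± 102 CPM (SD, n = 27). Ordered by level, the calves fell into 13 between 0 and 13.9 CPM and 14 between 88.3 and 325 CPM. No calf had a level between 13.9 and 88.3 CPM, a 6.35-fold step. On the log2(CPM + 1) scale this step was 2.58 wide, and the next widest step between neighbouring calves was 0.84. With a pseudocount of 0.1 in place of 1, the widest step of GP2 lay instead after the 1 calf at 0.

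The low calves were not at 0 for the most part. In the 13 low calves GP2 had 0 to 41 counts with a median of 2.64 CPM, and 11 of them reached 1 CPM. Only 1 calf had 0 counts, and 2 calves were at or under 3 counts. In the 14 high calves GP2 had 184 to 781 counts, and the highest level was 3.68-fold the lowest among them. GP2 was thus low rather than undetected in most of the low calves.

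ITLN2 ranged from 0 to 153 CPM, with a mean of 54.3 ± 44.9 CPM (SD, n = 27). Here 7 calves lay between 0 and 0.656 CPM and 20 calves between 32.7 and 153 CPM. The step was 4.35 wide on the log2(CPM + 1) scale, and the next widest was 0.50. All 7 low calves were under the detection floor, with 0 to 2 counts each and 0 counts in 4 of them. The floor of 3 counts lay at 0.984 to 2.35 CPM in these 7 libraries, so the lowest of the high calves was at least 13.9-fold higher than the floor of any low calf. The 20 high calves had 43 to 319 counts, a 4.68-fold range in CPM.

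**Figure D1:**
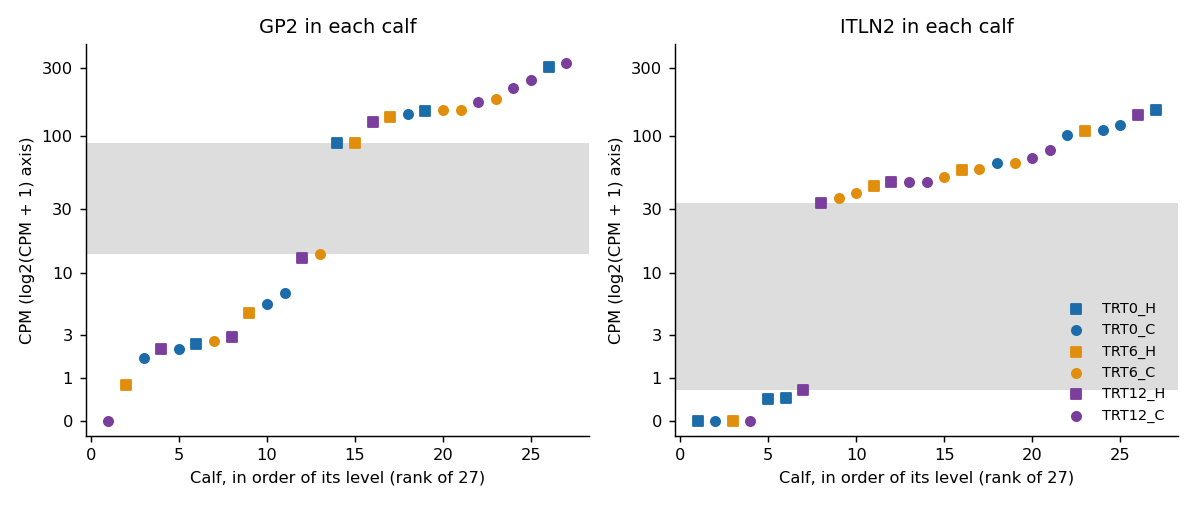
Level of GP2 (left) and ITLN2 (right) in each of the 27 calves, ordered by level, in CPM on a log2(CPM + 1) axis; colour gives the treatment, squares H calves and circles C calves, and the grey band is the widest step between neighbouring calves. GP2 steps from 13.9 to 88.3 CPM after 13 calves, and ITLN2 from 0.656 to 32.7 CPM after 7 calves.

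Set among all 14710 genes with a mean of at least 1 CPM, whose widest step had a median of 0.29 on the log2(CPM + 1) scale, the step of ITLN2 ranked 7 and that of GP2 ranked 29. Among steps with at least 4 calves on each side, ITLN2 ranked 2 and GP2 ranked 14.

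Over the 27 calves Spearman's rho with the total count was 0.02 for GP2 and -0.23 for ITLN2.

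Whether the timing of the first colostrum meal moved either gene was asked first, with the level of every calf by treatment and dam parity. In TRT0_H calves GP2 stood at 2.47, 88.3, 150 and 307 CPM. In TRT0_C calves it stood at 1.77, 2.21, 5.66, 6.97 and 143 CPM. A single TRT0_C calf was thus above the step, against 3 of 4 TRT0_H calves, and the ranges overlapped.

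In TRT6_H calves GP2 stood at 0.784, 4.74, 88.5 and 136 CPM. In TRT6_C calves it stood at 2.64, 13.9, 152, 153 and 182 CPM. Low and high calves occurred in both parities at 6 h.

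In TRT12_H calves GP2 stood at 2.19, 2.86, 12.9 and 124 CPM. In TRT12_C calves it stood at 0, 174, 216, 250 and 325 CPM. The TRT12_C calves held 4 of the 6 highest GP2 levels of the study and also its only value of 0. Counted over parities, 4 of 9 TRT0, 5 of 9 TRT6 and 5 of 9 TRT12 calves lay above the step, as did 6 of 12 H and 8 of 15 C calves.

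ITLN2 in TRT0_H calves stood at 0, 0.412, 0.451 and 153 CPM. In TRT0_C calves it stood at 0, 63.5, 101, 110 and 118 CPM. The TRT0_H calves held 3 of the 7 low ITLN2 calves beside the highest level of all.

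ITLN2 in TRT6_H calves stood at 0, 43.8, 56.8 and 108 CPM. In TRT6_C calves it stood at 35.8, 39.2, 50.4, 57.6 and 64.4 CPM. TRT6_C was the only one of the 6 groups with no low ITLN2 calf.

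ITLN2 in TRT12_H calves stood at 0.656, 32.7, 46.6 and 141 CPM. In TRT12_C calves it stood at 0, 46.7, 46.9, 69.4 and 79.3 CPM. Over parities, 5 of 9 TRT0, 8 of 9 TRT6 and 7 of 9 TRT12 calves lay above the step of ITLN2, as did 7 of 12 H and 13 of 15 C calves. Within every treatment, and within both parities, calves on the 2 sides of each step occurred together.

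**Figure D2:**
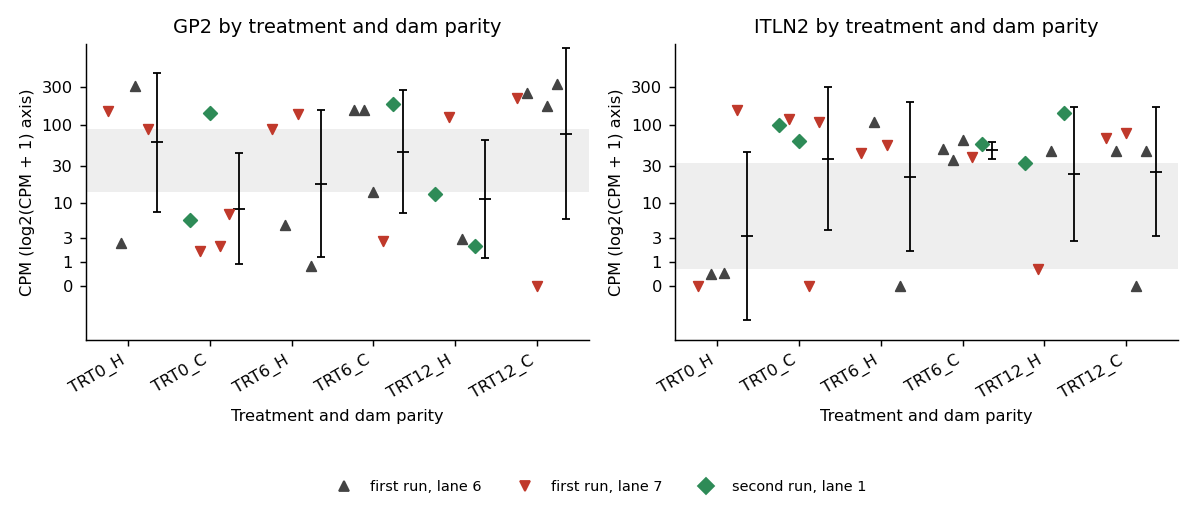
Level of GP2 (left) and ITLN2 (right) in the 6 groups of treatment and dam parity, in CPM on a log2(CPM + 1) axis; each symbol is 1 calf, its shape and colour give the sequencing lane, the black bar is the mean ± SD of log2(CPM + 1) with 4 H or 5 C calves, and the grey band is the widest step of each gene. TRT6_C is the only group without a calf under the ITLN2 step, and GP2 has calves on both sides in all 6 groups.

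Neither gene passed the test in any contrast of treatment or parity. By the quasi-likelihood test of edgeR with p-values adjusted after Benjamini and Hochberg, at an adjusted p of at most 0.1 and a fold change of at least 1.2, 0 of 2 members were called in each of the 13 contrasts. In each of these, 0% of the 13943 genes tested was called. Unadjusted p-values under 0.05 were held by 251 to 1376 genes per contrast, and in 6 of the 13 contrasts each the likelihood ratio test of edgeR and DESeq2 called 1 to 4 genes, with no call of GP2 or ITLN2.

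For GP2 the log2 fold change was -0.07 (SE 0.95) in TRT6 against TRT0, 0.43 (SE 1.002) in TRT12 against TRT0 and 0.51 (SE 0.90) in TRT12 against TRT6, and in C against H calves it was 0.36 (SE 0.84). For ITLN2 the same 4 log2 fold changes were -0.21 (SE 0.74), -0.16 (SE 0.73), 0.05 (SE 0.74) and 0.21 (SE 0.61). The adjusted p from edgeR was at least 0.936 in all 8 cases. Each estimate was smaller than its own standard error, and with standard errors this wide changes of that size were not detectable with 9 calves in a treatment.

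The estimate of GP2 in TRT6 against TRT0 changed sign, to 0.058, when parity was left out of the fit. The direction for ITLN2 was not settled by the data. With the sequencing lane added to the fit, the log2 fold changes of ITLN2 became 0.30 in TRT6 against TRT0, 0.09 in TRT12 against TRT0 and -0.21 in TRT12 against TRT6, each with the opposite sign. The mean of ITLN2 was 60.7 ± 61.7 CPM in TRT0, 50.7 ± 28.6 CPM in TRT6 and 51.5 ± 43.0 CPM in TRT12 (SD, n = 9 each), highest in TRT0. The mean of log2(CPM + 1) was 3.85 ± 3.43, 5.14 ± 1.98 and 4.68 ± 2.53, lowest in TRT0, the group with 4 low calves.

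The single-gene tests on log2(CPM + 1) gave the same outcome. In exact two-sided permutation tests the difference of TRT6 from TRT0 was 1.28 for ITLN2 (p = 0.300) and 0.55 for GP2 (p = 0.676). The difference of TRT12 from TRT0 was 0.83 for ITLN2 (exact p = 0.600) and 0.68 for GP2 (exact p = 0.636). The smallest p was that of ITLN2 in C against H calves, a difference of 1.46 with p = 0.183 in a permutation test of 100000 resamples. Adjusted over the 8 comparisons, the permutation p-values were 0.903 to 0.920.

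Within parities the largest estimates belonged to GP2. In calves of multiparous cows GP2 was 2.60 (SE 1.19) higher on the log2 scale in TRT12_C than in TRT0_C, with an unadjusted p of 0.0370 and an adjusted p of 0.484 by edgeR's quasi-likelihood test, and 4 of 5 TRT12_C calves exceeded every TRT0_C calf. The lanes were uneven between these groups. The TRT12_C calves at 174, 250 and 325 CPM were on lane 6, while the TRT0_C calves were on lane 7 or lane 1. With all calves kept, the alternative settings, lane as a covariate among them, put TRT12_C against TRT0_C at 2.50 to 3.48. The estimate for TRT6_C against TRT0_C, which shares the TRT0_C calves, was 1.64 (SE 1.19), and 4.74 without the TRT0_C calf at 143 CPM. In calves of heifers the estimates had the other sign, with -1.18 (SE 1.25) for TRT6_H against TRT0_H and -1.96 (SE 1.28) for TRT12_H against TRT0_H. Without the TRT0_H calf at 307 CPM they were -0.40 and -1.18. Without the TRT6_H calf at 136 CPM the former was -1.86, and without the TRT12_H calf at 124 CPM the latter was -4.76.

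Between parities, GP2 was estimated 2.07 lower in TRT0_C than in TRT0_H calves (log2 fold change -2.07, SE 1.22) and 2.48 (SE 1.26) higher in TRT12_C than in TRT12_H calves. The former was -5.17 without the TRT0_C calf at 143 CPM and -1.29 without the TRT0_H calf at 307 CPM, and the latter was 5.28 without the TRT12_H calf at 124 CPM. The interaction of treatment and parity for GP2 had an unadjusted p of 0.0443 and an adjusted p of 0.999 in the quasi-likelihood test of edgeR after Benjamini-Hochberg adjustment, and it was not called, with 0.00717% of the genes called. Without the TRT0_C calf at 143 CPM the GP2 estimate for TRT12_C against TRT0_C was 5.69, with an adjusted p of 0.367 from the same edgeR test. For ITLN2 the 9 estimates within parity or treatment ran from -0.65 to 0.94 with standard errors of 0.99 to 1.16. The 0.94, that of TRT0_C against TRT0_H, was 7.77 without the TRT0_H calf at 153 CPM. The interaction for ITLN2 had an unadjusted p of 0.709 and an adjusted p of 0.999 in the same test.

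Calves on both sides of the GP2 step occurred on every lane. GP2 was above its step in 6 of 11 calves on lane 6, in 6 of 11 on lane 7 and in 2 of 5 on lane 1. ITLN2 was above its step in 7 of 11, 8 of 11 and 5 of 5 calves. In the test of lane beside treatment and parity, edgeR's adjusted p was 0.847 for GP2 and 0.677 for ITLN2, and neither was among the 2.41% of genes called for lane.

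Lane and parity together showed an uneven pattern for GP2. On lane 6, 1 of 5 H and 5 of 6 C calves were above the step, while on lane 7 all 5 H and 1 of 6 C calves were. On lane 1 these were 0 of 2 H and 2 of 3 C calves. This pattern was noticed in the values and was not tested. The same calves enter the contrasts of GP2 within parity and the interaction, so lane cannot be fully told apart from these.

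The 2 genes were not high in the same calves throughout. Both were low in 3 calves and both were high in 10 calves, GP2 alone was high in 4 calves, and ITLN2 alone was high in 10 calves. All 4 combinations therefore occurred, and the 4 calves with high GP2 and low ITLN2 came from TRT0_H with 2, TRT12_H with 1 and TRT12_C with 1.

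Over all 27 calves Spearman's rho of GP2 with ITLN2 was -0.17, given without a test. Because the calves formed separate clusters, the relation of the 2 levels was tested only in the 2 clusters of 10 calves. The clusters were cut at the steps for which the genes were chosen, which narrows the range of both genes. The tests therefore concern levels within a cluster and cannot decide whether the genes are related over all calves. Among the calves with both genes high, Pearson's r of log2(CPM + 1) was -0.39 (permutation p = 0.264, adjusted 0.447) and Spearman's rho was -0.24 (permutation p = 0.515, adjusted 0.515), and without the 2 calves farthest from the median of GP2 r was 0.29. Among the calves with high ITLN2 and low GP2, r was -0.27 (permutation p = 0.447, adjusted 0.447) and rho was -0.36 (permutation p = 0.314, adjusted 0.515), with r at -0.35 without the 2 farthest calves. Neither cluster held a relation beyond the spread among calves, and in the first the sign rested on 2 calves.

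**Figure D3:**
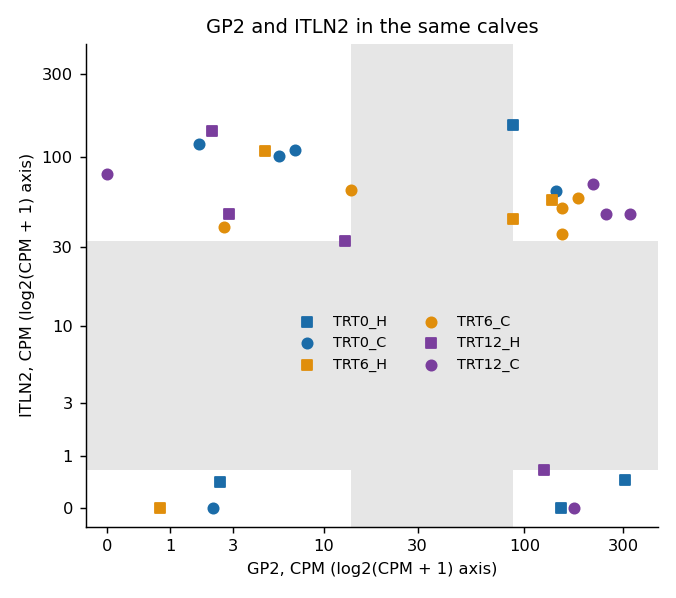
GP2 (horizontal axis) against ITLN2 (vertical axis) in the same 27 calves, both in CPM on log2(CPM + 1) axes; colour gives the treatment, squares H and circles C calves, and the grey bands are the widest steps of the 2 genes. The corners hold 3 calves low in both, 10 calves high in ITLN2 alone, 4 calves high in GP2 alone and 10 calves high in both.

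A second intelectin entry was at 0 in the calves with low ITLN2. LOC100300695 (ENSBTAG00000040437), which the study's gene tables name intelectin-2, had 0 counts in all 7 calves with low ITLN2. In the 20 calves with high ITLN2 it had 1 to 23 counts, or 0.521 to 12.6 CPM with a median of 4.46 CPM, and it was at 0 in none of them. Its rho with ITLN2 over the 27 calves was 0.73, with an r of log2(CPM + 1) of 0.89, the highest rho among the 14709 other genes with a mean of at least 1 CPM. These values span the low and the high calves, and among the 20 high calves alone the rho was 0.37.

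Over the 20 high calves LOC100300695 collected 177 counts and ITLN2 2986 counts. Its counts were 0.917 to 12.3% of those of ITLN2 in the same library, with a median of 6.30%. This is a share of counts with neither entry corrected for length, not a ratio of levels. In the RefSeq annotation of another cattle assembly, ARS-UCD2.0, the entry with the synonym ITLN2 lies beside an entry with the synonyms ITLN1 and ITLN2, and the counts hold no read that matched several genes. How reads of one copy were divided over the 2 entries is therefore uncertain, and the levels of both entries carry that uncertainty.

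**Figure D4:**
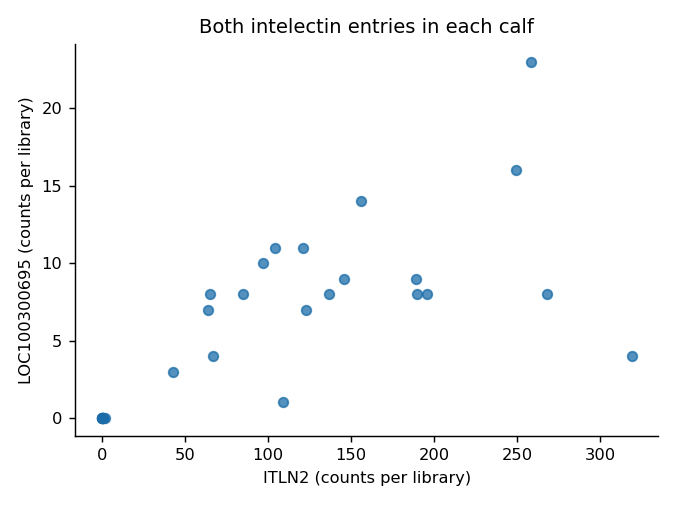
Counts of LOC100300695 (vertical axis) against counts of ITLN2 (horizontal axis) per library, 1 point for each of the 27 calves. The 7 calves at 0 to 2 ITLN2 counts overlie each other at 0 counts of LOC100300695, and the 20 others have 1 to 23 counts of it.

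The genes most like each member over the calves were listed by Spearman's rho of CPM over the 27 calves, as a description. Both values of a point come from the same library, and no p is given. For all genes, the rho of a gene with its best partner had a median of 0.78.

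No gene reached a rho of 0.7 with GP2 over the 27 calves, and with 1 calf left out at most 1 did. Among the 14 calves above the step alone, 36 genes did, but unrelated genes reach such a rho more readily among 14 calves than among 27. The 2 numbers are therefore not comparable. Over all calves the highest rho was 0.61, with ENSBTAG00000006785, and only 1.01% of genes had a best partner with a lower rho. Then followed COX11, an assembly factor of cytochrome c oxidase (0.61), PTX3, a secreted pattern recognition protein of innate immunity (0.58), ENSBTAG00000047181 (0.55), CCRL2, an atypical chemokine receptor (0.54), and BANF2 (0.54). The remaining genes of the first 10, ENSBTAG00000044010, ENSBTAG00000026400, ENSBTAG00000031731 and ENSBTAG00000032038, had a rho of 0.49 each.

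Most of these genes varied over a narrower range than GP2. COX11 ran from 6.18 to 18.0 CPM and PTX3 from 2.88 to 17.6 CPM over the calves. CCRL2 ran from 0.784 to 4.30 CPM and BANF2 from 0 to 7.91 CPM, with at most 12 and 10 counts in a library. ENSBTAG00000047181, to which no symbol was paired, was the exception, with 0 to 330 counts or 0 to 184 CPM. The lowest values of rho with GP2 were those of LRRC20 (-0.58), ENSBTAG00000046409 (-0.58) and DNAJC16, a heat shock protein family member (-0.58). Among the 14 calves above the step the rho was 0.64 for LRRC20 and 0.10 for DNAJC16, with the opposite sign, and -0.74 for ENSBTAG00000046409. Of the most alike genes, ENSBTAG00000006785 had a rho of 0.56 among these 14 calves, COX11 0.31, PTX3 0.31 and CCRL2 0.33. ENSBTAG00000047181 had 0.15 and BANF2 0.12. Altogether 6 genes had a rho of at least 0.5 with GP2, and 37 had -0.5 or less.

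ITLN2 had 27 genes at a rho of at least 0.5 and 41 at -0.5 or less, and 29.0% of genes had a best partner with a lower rho than its own. After LOC100300695 came LOC100299281, named quinone oxidoreductase-like protein 2 (0.67), ENSBTAG00000006177 (0.65), ELOVL6, an elongase of long-chain fatty acids (0.62), and ENSBTAG00000047602 (0.61). RALB, a small GTPase (0.61), ZBTB38, a zinc finger protein that binds methylated DNA (0.58), ENSBTAG00000019552 (0.56), ENSBTAG00000030845 (0.55) and ENSBTAG00000027075 (0.55) completed the first 10. Apart from LOC100300695 these genes had counts in every library, and ELOVL6 ran from 89.6 to 179 CPM and RALB from 47.3 to 113 CPM.

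The lowest values of rho with ITLN2 were those of PSTK, the kinase that makes phosphoseryl-tRNA on the way to selenocysteine (-0.63), ENSBTAG00000006507 (-0.62) and ENSBTAG00000021960 (-0.62). With values centred within lanes, LOC100300695 kept a rho of 0.75 and ELOVL6 had 0.48. For GP2, PTX3 had 0.68 and COX11 0.60 when centred in the same way.

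Cell type and pathway lists were then set beside the 2 genes. Of 145 listed symbols in 16 lists, 42 could be paired with an identifier of the table, the 2 members included, and the lists of B cells and follicles, germinal centres and tuft cells had no paired gene. In the M cell list, ANXA5 was the only paired gene besides GP2, and its rho with GP2 was 0.28. The presence of follicles or M cells in a segment was therefore not examined beside GP2. Their other listed genes may be in the count table under identifiers to which no symbol was paired. Of 13 pancreatic acinar genes only CELA1 was paired, and its mean was under 1 CPM.

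Of 11 goblet cell genes 4 were paired, and none of these reached a rho of 0.5 with ITLN2. Over all genes 0.184% reached it. TFF3, AGR2, CLCA1 and SPINK4, which encode secreted or secretory-pathway proteins of the goblet cell, had values of rho with ITLN2 of -0.02, 0.03, -0.25 and 0.19, and with GP2 of -0.05, 0.09, 0.22 and 0.01. CLCA1, the calcium-activated chloride channel regulator of mucus, ran from 107 to 592 CPM.

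The 9 paired genes of absorptive colonocytes, among them SLC26A3, CA1, AQP8 and VIL1, had a median rho of 0.07 with GP2 and 0.17 with ITLN2. The 7 genes of smooth muscle, which share the segment with the mucosa, had a median rho of 0.13 with GP2 and -0.29 with ITLN2, and all 7 were below 0 for ITLN2, from -0.39 for DES to -0.20 for ACTA2. Their summed level ran from 7008 to 14607 CPM over the calves, and its rho was 0.13 with GP2 and -0.30 with ITLN2. The part of the muscle content of a segment in either step was not tested.

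The 5 antimicrobial and defence genes with enough counts, DEFB1, PLA2G2A, PIGR, DUOX2 and BPI, had a median rho of 0.02 with GP2 and 0.10 with ITLN2. PIGR, the receptor that carries immunoglobulin A across the epithelium, stood at 0.02 and 0.12. PLA2G2A, a secreted bactericidal phospholipase, stood at 0.34 and -0.29. Over all genes the median was -0.03 for both members.

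A single list gene reached 0.5. IL1RL1, which encodes the receptor of interleukin-33, had a rho of -0.51 with GP2 and 0.51 with ITLN2, over a range of 7.21 to 19.8 CPM. Of all genes, 0.252% had -0.5 or less with GP2 and 0.184% had 0.5 or more with ITLN2. The other type 2 immunity genes that could be paired, STAT6 and POSTN, lay between -0.19 and -0.01 with both. By edgeR's quasi-likelihood test, 0 of the 37 list genes tested besides the members were called in any of the 13 contrasts. Per contrast, 0 to 7 of them had an unadjusted p under 0.05 in this test. The 7 were in TRT12_C against TRT0_C, where 1376 of all 13943 genes tested had such a p. The 0 was in TRT12_H against TRT6_H, where 251 of the 13943 did.

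**Figure D5:**
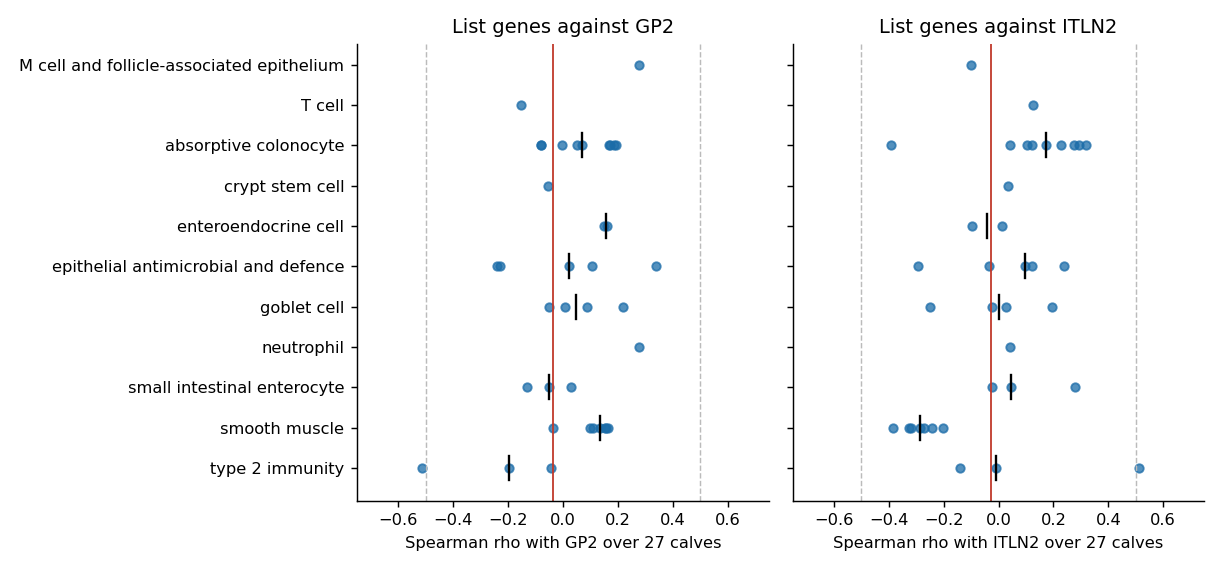
Spearman's rho over the 27 calves of each paired list gene with GP2 (left) and ITLN2 (right), 1 point for each gene other than the members; black bars are list medians for lists with 2 or more genes, the red line is the median over all 14709 other genes and dashed lines mark -0.5 and 0.5. IL1RL1 of the type 2 immunity list is the only point beyond a dashed line, at -0.51 with GP2 and 0.51 with ITLN2.

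Neighbouring genes were examined last, by gene order alone in the same RefSeq annotation, which places GP2 on chromosome 25 and ITLN2 on chromosome 3. Of the 30 nearest genes of each, 4 for GP2 and 2 for ITLN2 could be paired with an identifier. Near GP2, GDE1, COQ7 and IQCK had values of rho with GP2 of 0.19, -0.14 and 0.13, and ACSM3, 11 genes away, had -0.48 over a range of 18.4 to 72.2 CPM. Near ITLN2, F11R, a tight junction protein 7 genes away, had a rho of 0.44 over 95.4 to 190 CPM, and LOC613822 had -0.09. GDE1, COQ7, ACSM3 and F11R had counts in every library. IQCK, at 0 to 3.56 CPM, and LOC613822, at 0 to 5.76 CPM, were at 0 in some. The gene tables used for pairing include the study's core genes, at 1 CPM or more in every calf. Pairing thus favoured genes with counts in every library, and neighbours absent from some calves may have gone unpaired.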

How the data were processed

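Colon RNA from 27 calves was extracted with the mirVana kit and sequenced as TruSeq libraries, which do not mark strand. Per the labels, the submitters' processing notes name TopHat2 2.1.1, SAMtools 1.4, HTSeq and the UMD 3.1 build, and by the study's methods the authors counted reads per Ensembl gene with HTSeq, excluding reads matching several genes. The deposited values are whole-number counts per gene, taken here as not normalized. The table holds 24616 genes and 1163791 to 4202593 counts per calf, far fewer than the reads per library in the study's sample sheet, and the step between is not given in the sources used here. The floors cover counting error only, while the SDs and the standard errors of edgeR include the spread among calves.

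Treatment came from the labels. Dam parity was not in the deposited column names and was taken from the study's sample sheet, so fits without parity were added. Lanes came from library names. Calves are the replicates, and the labels give no litter or pen. The 2 genes and the lists were chosen with earlier results of these data known. Symbols were paired with 4046 identifiers through the study's gene tables. These include its core genes, at 1 CPM or more in every calf, so pairing favoured genes with counts in every library.

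CPM were computed over library totals. Genes at 1 CPM or more in at least 5 calves of each treatment (13943 genes) were tested with edgeR 4.0.16 (TMM factors, quasi-likelihood test) in R 4.3.3, with additive terms for treatment and parity for 4 contrasts, 6 group means for 9 contrasts and the interaction, and lane as a further term for the lane test. Calls required an adjusted p of at most 0.1 and, for contrasts, a fold change of at least 1.2. Permutation tests used scipy 1.17.1 on log2(CPM + 1). The fits were tested on simulated data. Named genes were the 10 with the highest and the 3 with the lowest Spearman's rho to each member among genes with a mean of at least 1 CPM, and the list genes, neighbours being added after values were seen. Alternatives were other size factors, no TMM, no filter, the likelihood ratio test, DESeq2 1.42.0, lane as a covariate, an adjusted p of 0.05, robust dispersion, other scales and leaving out each calf.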

Additional observations from a re-analysis of the deposited data

Results flagged for a closer look

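In 4 groups a single calf stood far from the others by Dixon's criterion among 18 groups examined. The criterion marks about 1 in 20 groups by chance for genes chosen without regard to their spread. Here both genes were chosen for a wide step between calves, so a group with 1 calf across that step is isolated by the choice, and the marks are a description and no test. In the TRT0 calves the highest GP2 level, that of an H calf, was 307 CPM and the next was 150 CPM. In the TRT0_C calves 1 calf had a GP2 level of 143 CPM and the next had 6.97 CPM. In the TRT12_H calves 1 calf had a GP2 level of 124 CPM and the next had 12.9 CPM. In the TRT0_H calves 1 calf had an ITLN2 level of 153 CPM and the next had 0.451 CPM. In the last 3 groups the isolated calf was the only one of its group above the step of the gene.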

How the results depend on the processing

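GP2 and ITLN2 were called in 0 contrasts under every alternative that was run. Changes in the number of genes called did not involve them. The likelihood ratio test called 2 genes in C vs. H, 1 in TRT6_H vs. TRT0_H, 1 in TRT6_C vs. TRT0_C, 2 in TRT12_C vs. TRT0_C, 1 in TRT0_C vs. TRT0_H, 1 in TRT6_C vs. TRT6_H, 2 for the interaction and 685 for lane. DESeq2 called 1 in C vs. H, 1 in TRT12_H vs. TRT0_H, 1 in TRT6_C vs. TRT0_C, 4 in TRT12_C vs. TRT0_C, 1 in TRT0_C vs. TRT0_H, 2 in TRT6_C vs. TRT6_H and 623 for lane. With lane as a covariate 1 gene was called in TRT6 vs. TRT0, 1 in TRT12 vs. TRT0, 4 in TRT12_C vs. TRT0_C and 0 for the interaction. At an adjusted p of 0.05 the interaction held 0 and lane 130.

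The direction of ITLN2 turned in several uncalled contrasts. With lane as a covariate its log2 fold change was 0.30 in TRT6 vs. TRT0, 0.093 in TRT12 vs. TRT0, -0.21 in TRT12 vs. TRT6, -0.40 in TRT12_H vs. TRT6_H, -0.030 in TRT12_C vs. TRT6_C and 0.25 in TRT12_C vs. TRT12_H. Without TMM factors it was -0.055 in TRT12_C vs. TRT6_C. Without parity, GP2 was 0.058 in TRT6 vs. TRT0. In CPM without a log the ITLN2 differences were -9.97, -9.19 and 0.784 CPM in TRT6 vs. TRT0, TRT12 vs. TRT0 and TRT12 vs. TRT6. With a pseudocount of 0.1 the GP2 difference of TRT12 from TRT6 was -0.15, and the widest GP2 step lay after 1 calf, the one at 0. The cause was not tested, apart from what each setting changes by construction.

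Leaving out 1 calf at a time, ITLN2 ran from -0.46 to 0.39 in TRT6 vs. TRT0, -0.57 to 0.45 in TRT12 vs. TRT0, -0.40 to 0.32 in TRT12 vs. TRT6, -0.16 to 7.27 in TRT6_H vs. TRT0_H, -0.52 to 7.33 in TRT12_H vs. TRT0_H, -0.96 to 0.65 in TRT12_H vs. TRT6_H, -0.53 to 0.45 in TRT6_C vs. TRT6_H, -0.22 to 0.38 in TRT12_C vs. TRT6_C and -0.62 to 0.84 in TRT12_C vs. TRT12_H. It ran from 0.51 to 7.77 in TRT0_C vs. TRT0_H, and the values of 7.27, 7.33 and 7.77 arose without the TRT0_H calf at 153 CPM. GP2 ran from -0.34 to 0.57 in TRT6 vs. TRT0, 0.12 to 1.004 in TRT12 vs. TRT0, 0.10 to 0.70 in C vs. H, -1.86 to -0.40 in TRT6_H vs. TRT0_H, -4.76 to -1.18 in TRT12_H vs. TRT0_H, 1.31 to 4.74 in TRT6_C vs. TRT0_C, 2.26 to 5.69 in TRT12_C vs. TRT0_C, -5.17 to -1.29 in TRT0_C vs. TRT0_H and 2.07 to 5.28 in TRT12_C vs. TRT12_H. The genes called ran from 0 to 1 in C vs. H, TRT12 vs. TRT0, TRT6_C vs. TRT6_H and the interaction, and from 74 to 1116 for lane. The rho of GP2 with ITLN2 in calves high in both ran from -0.48 to 0.05. The steps kept 12 to 13 low calves for GP2 and 6 to 7 for ITLN2.

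Of the 10 genes most like GP2 over all 27 calves, 3 to 6 remained under other settings. These were Pearson's r, TMM-scaled CPM, values centred within lanes or within treatment and parity, and a mean of at least 5 CPM. For ITLN2, 3 to 5 remained with Pearson's r or with centred values. With 1 calf left out, 4 to 10 remained for GP2 and 5 to 10 for ITLN2. Within the calves above each step 0 remained for GP2 and 1 for ITLN2. There 36 and 4 genes had a rho of 0.7 or more, against 0 and 1 over all calves. These counts are not comparable, because unrelated genes reach such a rho more readily among fewer calves. No paired analysis was possible, because each calf received a single treatment and the labels name no link between calves of different groups. The totals of 1163791 to 4202593 counts limit the low levels, where 3 counts reach up to 2.58 CPM.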
